A study of Homo sapiens with 9 samples.

Results

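The regions described here are EGR1 peaks that the authors listed for clobetasol-treated cells and that have no counterpart in their list for untreated induced cells. EGR1 was immunoprecipitated with its chromatin and the bound DNA sequenced (ChIP-seq). The cells, BJ-hTert-B-RAF-V600E, are human skin fibroblasts that carry telomerase and a BRAF V600E oncogene put under the control of doxycycline. Of 9 libraries, 3 came from proliferating cells given ethanol and DMSO. Another 3 came from cells given doxycycline at 1000 ng/mL and DMSO, and 3 from cells given doxycycline at 1000 ng/mL with clobetasol at 2 nM, all for 24 h. The titles name DMSO for the clobetasol libraries too, while their treatment label names clobetasol alone, so whether both were given is not settled. All 3 groups carry hTERT and the inducible transgene, and whether the line is 1 clone is not given in the sources used here. The authors pooled the 3 libraries of each treated group and called peaks against the pooled EGR1 libraries of proliferating cells. Each list is therefore 1 pool against 1 pool, no value has a spread between replicates, and no test against replicate error could be made. Both lists share the proliferating pool. The descriptions of its replicates 2 and 3 both give the sample name Prolif2, while their titles number them apart. The peak names list replicates 1, 2 and 3 of this pool. Whether replicates 2 and 3 are separate samples is thus not settled, and this pool is the control behind every fold, q and control level.

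A peak of the clobetasol list on chromosomes 1 to 22 was a member if it overlapped no peak of the induced list by 1 bp or more. This held for 1601 of 11926 peaks (13.4%, 95% Wilson interval 12.8 to 14.05), out of 28625 peaks in both lists. Members were thus chosen by the readout itself: presence in 1 list and absence from the other. Folds, q values and fragment numbers from these contrasts are given below as descriptions with no test. In the other direction, 5652 of 15750 induced peaks (35.9%) had no clobetasol peak.

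EGR1 is a zinc finger transcription factor that binds GC-rich elements and is made within minutes of growth factor signalling through RAF, MEK and ERK. In fibroblasts, lasting activation of RAF leads to senescence, a stable arrest of the cell cycle. Clobetasol is a synthetic glucocorticoid. Its receptor moves to the nucleus on binding the ligand and acts there both by binding DNA and by meeting other transcription factors.

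Most members were weak peaks. Their fold, which the authors' peak caller computed from the treated pileup and the local level of the proliferating pool (the control level), had a median of 3.07 (interquartile range 2.71 to 3.42). Clobetasol peaks that did overlap an induced peak, called shared peaks below, had a median fold of 3.18 (2.76 to 3.72). Fragments at the summit numbered a median of 48 in members (39 to 66) and 81 in shared peaks (57 to 125). The control level was a median 1.86 times the lowest of the list in members and 3.13 times in shared peaks. It was at the lowest in 48 members (3.0%) and in 68 shared peaks (0.659%). Induced peaks without a clobetasol peak were much like members, with a median fold of 3.325 and 44 fragments, not scaled for depth. Their median −log10 q was 8.43, against 8.12 in members. Their control level was a median 1.87 times the lowest of their list, and at the lowest in 3.22%. Weak peaks at low control levels were thus not particular to members. All members together covered 0.496 Mb. A fold of 5 or more was reached by 15 of 1601 members and by 429 of 10325 shared peaks.

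The share of members fell steeply with the strength of the peak. Both lists end at a −log10 q of 5. Between 5 and 10, 1069 of 3908 clobetasol peaks were members (27.4%, 95% Wilson interval 26.0 to 28.8). Between 10 and 20, 438 of 4145 were (10.6%). The share was 2.91% between 20 and 40 (81 of 2783), and 1.19% at 40 and over (13 of 1090). At −log10 q of 10 or more, members made up 532 of 8018 peaks (6.64%). Since q was part of the contrast that chose them, this gradient describes the set and tests nothing.

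By control level, the share of members was highest at the lowest control level, with 48 of 116 clobetasol peaks (41.4%, 32.8 to 50.5). Up to 2 times the lowest it was 26.7% (815 of 3053), from 2 to 5 times 9.48% (585 of 6174), and from 5 to 20 times 5.05% (122 of 2414). Over 20 times it was 18.3% (31 of 169, 13.2 to 24.9), above the class before it. The share was thus under the 13.4% of all clobetasol peaks only from 2 to 20 times the lowest control level, and above it on both sides.

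**Figure D1:**
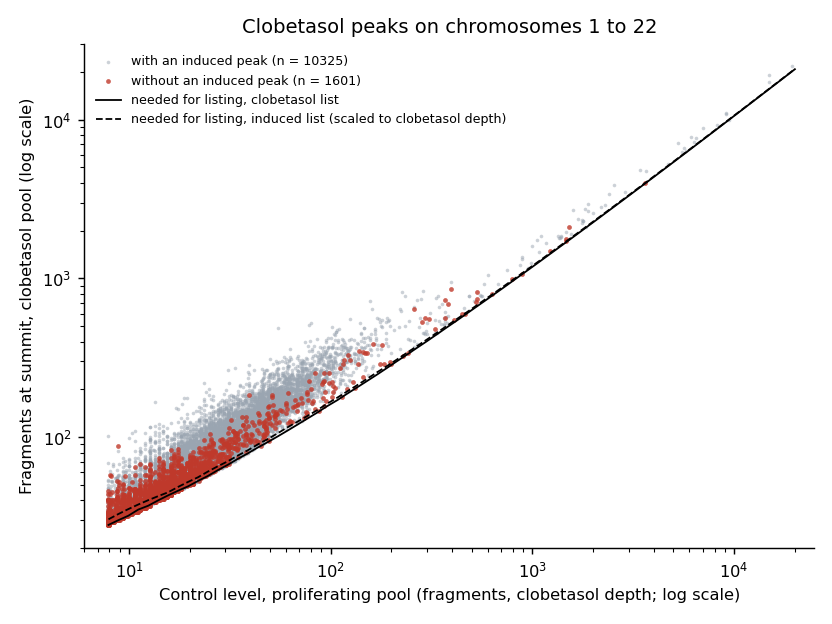
Fragments at the summit in the clobetasol pool against the control level of the proliferating pool, both on log scales, for 1601 members (red) and 10325 shared peaks (grey). Lines give the fragments needed for listing in each list. Most members lie close above the lines, with a median of 48 fragments against 81 in shared peaks.

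A site without an induced peak has no measured induced value, but the listing limit of the induced list sets an upper limit to it. For each member, the most fragments the induced pool could hold at that summit without a listed peak were computed from the control level. The clobetasol fragments, divided by the depth ratio of the pools (1.21), were then set against that number. The result is the lowest ratio of clobetasol to induced signal that the lists allow, provided that the q limit was what kept induced peaks off the list. This lowest ratio had a median of 1.104 (interquartile range 1.02 to 1.25). It was above 1 in 1304 of 1601 members (81.4%). With the lower 95% limit of the clobetasol fragments in place of the fragments themselves, it was above 1 in 303 (18.9%). At shared peaks the ratio itself could be measured, with a median of 0.793 (0.700 to 0.902), and it was above 1 at 1220 of 10325 (11.8%). The rule by which members were picked separates these figures, so nothing is read from their difference. Members with a lowest ratio of at least 1.5 numbered 88, and 2 reached 2. All 532 members with a −log10 q of 10 or more were above 1, with a median of 1.32, which the limit of the induced list and the depth ratio all but fix.

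The member of highest fold was at chromosome 17, 43033389 to 43033963 in hg19. It held 88 fragments in the clobetasol pool, or 72.4 at the depth of the induced pool (95% Poisson interval 58.1 to 89.2). Proliferating cells had a control level of 7.26 at the same depth, only 1.11 times the lowest of the list. All 10 members of highest fold had control levels from 1.00 to 1.44 times the lowest. At this chromosome 17 site the induced pool can have held at most 26 fragments. The lowest ratio was thus 2.79, and 2.23 at the lower limit of the clobetasol count. Its fold was 9.07, and 23 other induced peaks lay within 500 kb, so this was a site without a listed induced peak inside a region rich in listed ones. The member of second highest fold, 6.53, lay 297 kb away at chromosome 17, 43329983 to 43330377. It held 47.7 depth-scaled fragments (36.3 to 61.7) against at most 24 in the induced pool, a lowest ratio of 1.99. An induced peak of 1493 bp with a fold of 5.35 ended 3.91 kb from it.

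The member of highest q outside high-control sites was at chromosome 1, 144707628 to 144708057. Sites are called high-control where proliferating cells exceeded 5 times the lowest control level, and this site was just under that bound at 4.996 times. It held 152 depth-scaled fragments (131 to 176) where the induced pool can have held at most 68, a lowest ratio of 2.24. A member on chromosome 8, from 13263604 to 13263959, had a fold of 6.35 and 46.9 depth-scaled fragments (35.5 to 60.8) against at most 25. It lay 129 kb from the nearest induced peak.

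Several of the strongest members were on chromosome 2. At 176795226 to 176795624, with a fold of 5.57, depth-scaled fragments were 56.0 (43.5 to 71.0) against at most 30, and the nearest induced peak was 199 kb off. At 110387449 to 110387758, with a fold of 5.63, they were 53.5 against at most 29. At 151900126 to 151900445, with a fold of 4.92, they were 68.3 against at most 37. At 230272005 to 230272374, with a fold of 3.63, they were 110.3 against at most 64, and only 1 induced peak lay within 500 kb.

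The remaining sites of highest q or fold outside high-control sites were spread over 8 chromosomes. A peak on chromosome 3, 12185342 to 12185637, reached a lowest ratio of 1.79 with a fold of 3.89. Chromosome 15 held a pair, at 53673354 to 53673582 (fold 4.06, lowest ratio 1.73) and 34626221 to 34626562 (fold 4.61, lowest ratio 1.77). The first of these had no induced peak within 500 kb, and the nearest was 590.5 kb away. At chromosome 14, 69162077 to 69162378, the lowest ratio was 1.67. Chromosome 5 held another pair, with 1.63 at 44579996 to 44580249 and 1.68 at 91887818 to 91888161. At chromosome 8, 101898235 to 101898544, it was 1.74, and at chromosome 4, 47527518 to 47527817, it was 1.65. The smallest value of these sites was 1.58, both at chromosome 9, 123678817 to 123679162, and at chromosome 1, 171189278 to 171189570. In the last of these the control level was the lowest of the list, where 116 clobetasol peaks lay. Whether this lowest level is a floor rather than a local count was not tested. These sites were chosen for high q or fold and for absence from the induced list, so a value above the induced upper limit follows from the choice. The counting intervals cover counting error only.

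**Figure D2:**
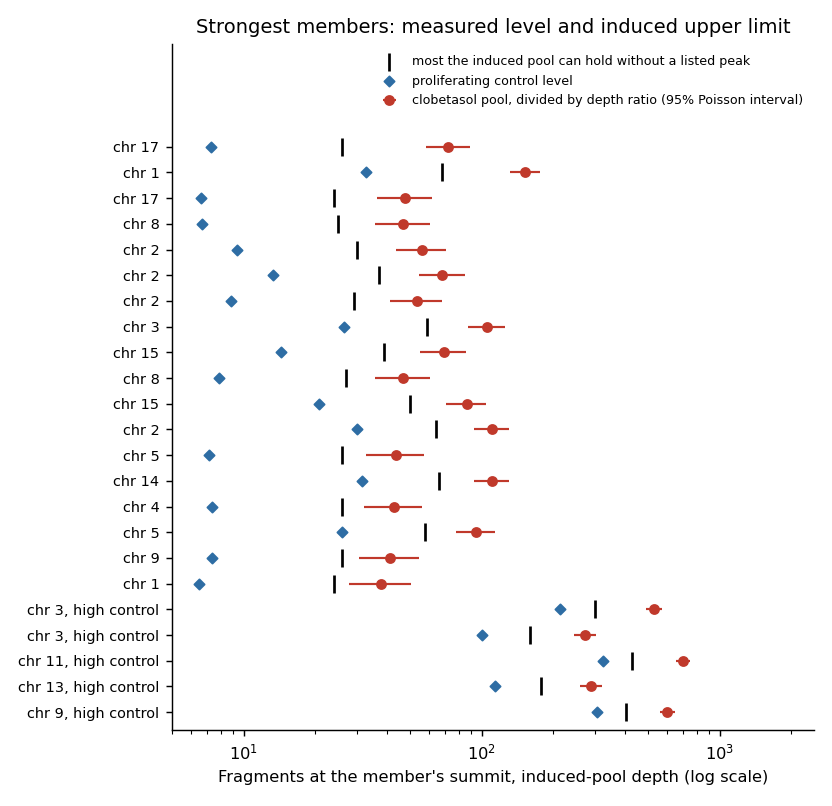
Fragments at the summit of the 10 members of highest q and the 10 of highest fold outside high-control sites, and of the 5 high-control members of highest q (log scale, depth of the induced pool). Red points with 95% Poisson intervals are the clobetasol pool, black bars the most the induced pool can hold without a listed peak, and blue diamonds the proliferating control level. Every red interval lies to the right of its black bar, which the choice of these sites largely fixes, from a ratio of 1.49 at the chromosome 9 high-control site to 2.79 at the chromosome 17 site of highest fold.

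High-control members numbered 153 (9.56% of members), against 2430 shared peaks (23.5%). Over all clobetasol peaks the share was 21.7%. Their median width was 251 bp, against 365 bp in high-control shared peaks, and 74 (48.4%) were under 250 bp, against 249 (10.2%). The narrowest peak of the list was 223 bp. Among the other members the median width was 278 bp and 27.9% were under 250 bp, against 349 bp and 9.23% in the other shared peaks. By class of control level, the median width of members was smallest between 5 and 20 times the lowest, at 249 bp in 122 members. The 31 members over 20 times had a median of 323 bp, wider than members outside high-control sites. Some of these 31 were narrow all the same. Their widths included 224 bp at 49.8 times, 228 bp at 32.8 times and 236 bp at 46.7 times.

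The contrast in width was widest among the strongest sites. Of the 13 members with a −log10 q of 40 or more, 9 were under 250 bp (69.2%, 95% Wilson interval 42.4 to 87.3), and all 9 were high-control sites. Of the 1077 shared peaks of that strength, 27 were (2.51%, 1.73 to 3.62). At 20 and over, 32 of 94 members (34.0%) and 140 of 3779 shared peaks (3.70%) were under 250 bp. Outside high-control sites at that strength, 2 of 43 members and 17 of 1993 shared peaks were so narrow. Of the 13 strongest members by q, 9 were thus tall and narrow pileups at places where proliferating cells also had many fragments. The width and the control level come from the contrast that chose the members and are given with no test.

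The 5 high-control members of highest q were all between 224 and 236 bp wide, near the narrowest peak of the list at 223 bp. Whether a width limit also kept induced peaks off their list was not tested. If so, the induced upper limit need not hold at these 5 sites, nor at other narrow members. Members under 250 bp numbered 478 of 1601. Among them was the chromosome 15 site at 53673354 to 53673582, which was 229 bp wide. The strongest, at chromosome 11, 57908492 to 57908715, held 855 fragments on a control level 49.8 times the lowest, with a fold of 2.17. At chromosome 3, 33717723 to 33717950, there were 642 fragments and a fold of 2.47. The site at chromosome 3, 135378547 to 135378774, held 330 fragments with a fold of 2.71, and the one at chromosome 13, 51560924 to 51561155, held 349 with a fold of 2.52. At chromosome 9, 66458450 to 66458685, there were 731 fragments and a fold of 1.98, and an induced peak lay only 306 bp away. These folds are well under those of the chromosome 17 sites, and their high q rests on large numbers of fragments.

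**Figure D3:**
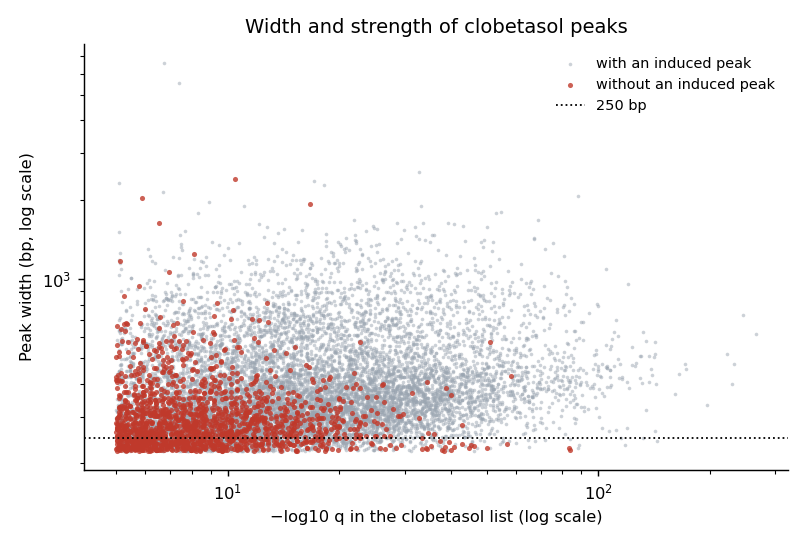
Peak width in bp against −log10 q in the clobetasol list, both on log scales, for members (red) and shared peaks (grey), with a dotted line at 250 bp. Above a −log10 q of 40, 9 of 13 members lie under the line, against 27 of 1077 shared peaks.

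Members differed widely in how far they lay from induced binding. The nearest induced peak was a median of 42.0 kb away (interquartile range 10.4 to 129.6 kb). For shared peaks, the nearest induced peak other than those they overlapped was 22.3 kb away. For induced peaks without a clobetasol peak, the nearest clobetasol peak was 32.9 kb away. Within 1 kb of an induced peak lay 113 members (7.06%, 95% Wilson interval 5.90 to 8.42), and 394 lay within 10 kb (24.6%). Among shared peaks, 13.7% and 35.3% had another induced peak so close. Within 100 kb lay 1120 of the 1601 members, and 83.2% of shared peaks had another induced peak in that reach.

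In 78 of the 113 members within 1 kb of an induced peak (69.0%), the nearest induced peak was itself overlapped by a clobetasol peak. Over all induced peaks this share was 64.1%, so the members' neighbours were near the background. In the other 35 it was not, so that an induced peak without a clobetasol peak stood beside a clobetasol peak without an induced peak. The neighbouring induced peak held a median of 71 fragments and was 414 bp wide, against 50 fragments, before scaling for depth, and 280 bp for the member. After scaling for depth, the induced neighbour held more fragments in 83 of the 113. The 3 smallest gaps, of 128, 219 and 230 bp, were at chromosome 1, 23811374 to 23811620, chromosome 19, 59069937 to 59070202, and chromosome 12, 27676839 to 27677110. The first adjoined an induced peak of 827 bp with a fold of 7.12, and its own fold was 3.13.

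The members farthest from a listed induced peak lay in long stretches where none was listed. At chromosome 2, 80353976 to 80354265, the nearest induced peak was 4.24 Mb away, and the member held 30 fragments with a fold of 3.48. A second member of the same stretch, at 81038355 to 81038624, held 53 fragments with a fold of 3.75. At chromosome 13, 84523638 to 84523886, the distance was 3.61 Mb and 55 fragments gave a fold of 3.56. All 3 were of modest strength, and at the lower limit of their count none exceeded the induced upper limit. In the numbering of the induced list, 59 numbers were missing in the chromosome 2 stretch and 78 in the chromosome 13 stretch. Weaker induced peaks may thus have been called there. Such distances were not particular to members. Shared peaks lay up to 7405 kb from another induced peak, and induced peaks without a clobetasol peak up to 5729 kb from a clobetasol peak.

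Members made up a larger share of clobetasol peaks where induced peaks were sparse. Each clobetasol peak was classed by the number of other induced peaks within 500 kb of its summit, leaving out those it overlapped. With none in reach, 96 of 273 clobetasol peaks were members (35.2%, 95% Wilson interval 29.7 to 41.0). With 1 to 3, 332 of 1595 were (20.8%), and with 4 to 9, 622 of 4014 (15.5%). The share was 10.6% with 10 to 19 and 7.20% (6.27 to 8.26) with 20 and over. The background over all classes was 13.4%.

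The same order held at like strength. Between −log10 q of 5 and 10, the share went from 54.0% with no induced peak in reach to 16.6% with 20 and over. Between 10 and 20 it went from 35.9% to 5.71%, and between 20 and 40 from 16.1% (9 of 56) to 0.628% (4 of 637). It also held outside high-control sites, from 41.1% to 8.68%. Neighbouring peaks are not independent of each other, so the intervals cover counting error only. The count of neighbours comes from the induced list, which also entered the rule, and the order is given as a description.

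**Figure D4:**
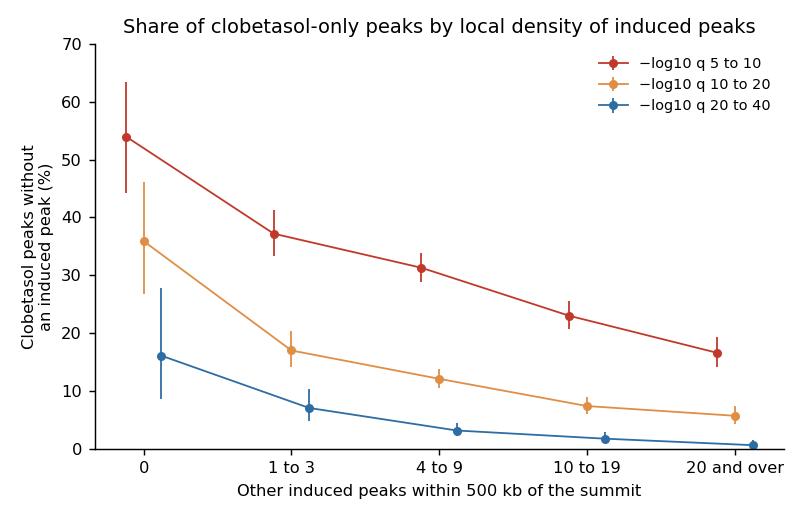
Share of clobetasol peaks that are members, in percent with 95% Wilson intervals, by the number of other induced peaks within 500 kb, in 3 classes of −log10 q. In each class the share falls from left to right, from 54.0% to 16.6% in the weakest and from 16.1% to 0.628% in the strongest of the 3.

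By chromosome, the share of members ran from 6.70% on chromosome 19 (50 of 746, 95% Wilson interval 5.12 to 8.73) to 18.8% on chromosome 18 (38 of 202, 14.02 to 24.8). After chromosome 19 the lowest shares were those of chromosome 22 (7.83%), chromosome 21 (8.33%), chromosome 16 (9.42%) and chromosome 17 (9.96%). After chromosome 18 the highest were those of chromosome 6 (17.4%), chromosome 3 (16.6%) and chromosome 4 (16.4%). The intervals of most chromosomes included the background of 13.4%. Neighbouring peaks are not independent, so these intervals cover counting error only, and chromosomes 19 and 18 are the extremes of 22. The median number of other induced peaks within 500 kb of a clobetasol peak was 27 on chromosome 19 and 5 on chromosome 18. At −log10 q of 10 or more, where the background was 6.64%, chromosome 19 had 10 members of 505 peaks (1.98%) and chromosome 18 had 14 of 118 (11.9%). The reverse share, of induced peaks without a clobetasol peak, lay between 32.0% and 40.1% on every autosome, with 35.6% on chromosome 19 and 39.8% on chromosome 18.

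Per length of chromosome, members were spread more evenly than the other peaks. Over the span between the first and last listed peak, they numbered from 0.287 per Mb on chromosome 21 to 0.878 per Mb on chromosome 17, a range of 3.05 times. Shared peaks ran from 2.01 per Mb on chromosome 4 to 11.8 per Mb on chromosome 19, a range of 5.87 times, and induced peaks without a clobetasol peak ranged over 6.03 times. Chromosome 19, which is rich in genes, held 0.847 members per Mb. Chromosomes 13 and 18, which are poor in genes, held 0.411 and 0.488. The median over the autosomes was 0.588, and chromosome 21, at 0.287, was below both. A relation of member density to gene content was not tested, since no annotation was used. The median fold of members lay between 2.87 and 3.19 on every autosome. These ranges rest on 11 to 154 members a chromosome.

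**Figure D5:**
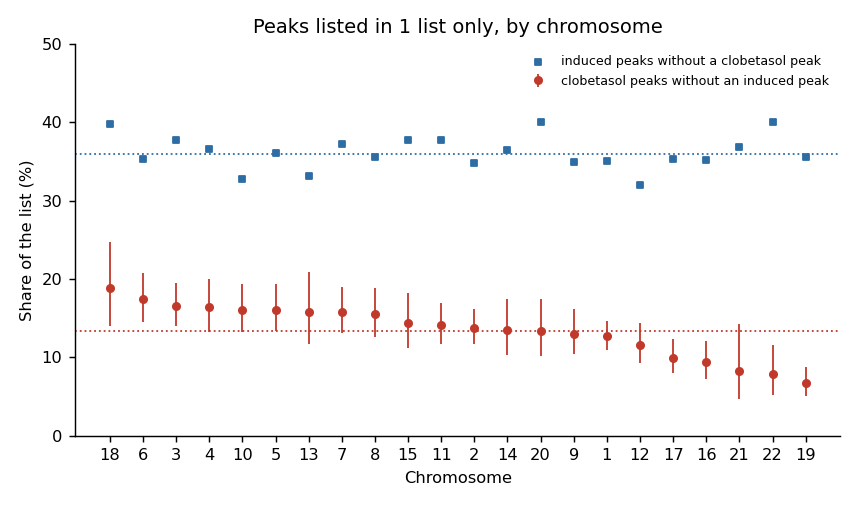
Share of clobetasol peaks without an induced peak (red, 95% Wilson intervals) and of induced peaks without a clobetasol peak (blue squares) on each autosome, ordered by the first, with the share over all autosomes as dotted lines. The red share runs from 18.8% on chromosome 18 to 6.70% on chromosome 19, while the blue stays between 32.0% and 40.1%.

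Members fell into 1095 windows of 1 Mb. A single member was in 728 of these windows, 3 or more in 105 and 4 or more in 27. The other 873 members shared a window with another, and 41 had another member within 10 kb. The densest window, chromosome 8 from 43000001 to 44000000, held 7 members, of which 6 were high-control sites with folds of at most 1.87. The next count, 5 members, was shared by windows on chromosomes 1, 12, 15 and 17. The one on chromosome 12 held 1 high-control member and the other 3 held none. The first of them in genome order was chromosome 1 from 172000001 to 173000000. Beside their 5 members, the windows on chromosomes 1, 12, 15 and 17 held 3, 7, 8 and 12 shared peaks. The chromosome 8 window held 7 shared peaks. Over all autosomes 13.4% of clobetasol peaks were members. The windows were picked for their member counts, so no excess of members is read from them.

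The chromosome 1 window overlaps the stretch without induced peaks that held the most members. From 172502230 to 173399106 on chromosome 1, no induced peak was listed over 0.897 Mb, so the 7 clobetasol peaks there were members by the rule itself. Their folds ran from 2.31 to 3.98 and their fragments from 31 to 68. The strongest was at 173118944 to 173119252, with 41 fragments, a fold of 3.98 and a lowest ratio of 1.25. The lowest ratio was above 1 at 4 of the 7, and at 0 of the 7 with the lower limit of the count. In the numbering of the induced list, 17 numbers were missing in this stretch, so weaker induced peaks may have been called there.

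Peak names show how far absence from the induced list can be taken. In both lists the peaks carry numbers that rise along the genome, and the induced list holds 16285 peaks under numbers up to 52393. The other 36108 numbers are missing, and where they lay can be bracketed by the listed peaks on each side. For 125 members (7.81%, 95% Wilson interval 6.59 to 9.23), no number was missing between the flanking induced peaks. At these sites no induced peak was numbered at all. For the other 1476, at least 1 number was missing, with a median of 4 over all members, so a weaker induced peak may or may not have been called at the site. For induced peaks without a clobetasol peak, the same count in the clobetasol list gave 1171 of 5652 (20.7%), in a list where 14337 numbers are missing. Where both flanking peaks lay within 100 kb, it was 106 of 547 members (19.4%) and 786 of 2087 induced peaks without a clobetasol peak (37.7%). Both shares depend on how many numbers are missing from the other list.

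The 125 members with no missing number had a median fold of 2.99 and 54 fragments, against 3.08 and 48 in the rest, and lay a median of 6.06 kb from the nearest induced peak, against 49.2 kb. The nearer flanking peaks leave less room for a missing number. The 5 of highest q among them, chosen after their values were seen, were all high-control sites. The strongest of these, at chromosome 7, 140735618 to 140735854, held 305 fragments with a fold of 2.60 and a lowest ratio of 1.62. It was 237 bp wide, so the caution on the upper limit at narrow members holds there too. At chromosome 17, 45307214 to 45307474, 190 fragments gave a fold of 3.05 and a lowest ratio of 1.66. Of the 10 members of highest fold, only the one at chromosome 9, 123678817 to 123679162, had no missing number, and an induced peak of 35 fragments lay 1.34 kb from it. At the site of highest fold on chromosome 17, 7 numbers were missing. The others of highest fold had from 1 to 45 missing, and the 10 of highest q outside high-control sites from 2 to 26. Weaker induced peaks may thus have been called at those sites.

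The 3 widest members differed in strength. At chromosome 15, 90325681 to 90328085, a region of 2405 bp reached 51 fragments at its summit, with a fold of 3.39 and a lowest ratio of 1.199, all somewhat above the members' medians. At chromosome 5, 172192145 to 172194173, a region of 2029 bp had a fold of 2.69 and a lowest ratio of 1.00. The region of 1925 bp at chromosome 7, 100782385 to 100784309, was stronger, with 67 fragments, a fold of 3.83 and a lowest ratio of 1.45. It had no missing number, and 38 other induced peaks lay within 500 kb of it.

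At the limits of the rule, membership turned on few fragments. The 3 members of lowest q, all at a −log10 q of 5.00 or 5.01, held 29 to 37 fragments. They were at chromosome 16, 80648794 to 80649216, chromosome 12, 111148505 to 111148916, and chromosome 11, 130863338 to 130863621. Their lowest ratios were between 0.9497 and 0.9548, so an induced pool of slightly higher depth-scaled signal would still have left them unlisted. On the other side, the smallest overlap that made a peak shared was 140 bp, at chromosome 12, 56132273 to 56132511, with 33 fragments in the clobetasol pool, or 27.2 at the depth of the induced pool, and 31 in the induced. No overlap was between 1 and 50 bp, and no gap was under 128 bp.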

How the data were processed

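Libraries were processed by the authors with cutadapt 1.15, BWA, SAMtools 1.3.1 and MACS2 2.1.1.20160309 on hg19, per the submitters' processing notes. The peak names carry a q tag whose meaning is not given. Otherwise the sources used here give no settings of the peak caller, and how peaks were removed after calling is not recorded. The deposited lists give, for each peak, a fold (a ratio), −log10 p and −log10 q at the summit, and a score equal to the whole part of 10 times −log10 q. The labels do not say whether replicates are separate cultures. Per the peak names, the authors pooled replicates 1, 2 and 3. Library depths are unknown.

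Overlaps were computed in Python 3.11.15 and checked with bedtools 2.31.1. Fragments and control levels were solved from fold and −log10 p, a method taken over from earlier work on these lists. Fragments came out within 0.05 of a whole number in 99.8% of members. The spacing that best described the control levels was 0.670 in the clobetasol list and 0.552 in the induced list, and their ratio, 1.21, was used as relative depth. The ratio of the lowest control levels was 1.22. Where the 2 lists had the same summit (369 sites), the median ratio of depth-scaled control levels was 1.00, with 68.6% within 1%. The induced upper limit is the largest pileup with −log10 p under 7.94, the lowest listed. Code was tested on simulated data.

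The members and the lists of sites were chosen with earlier results of these data known. Named were members of highest q, fold and lowest ratio, of lowest q, of smallest and largest gap, the widest, and the densest windows (35 sites in all besides windows). Sites without a missing number and the stretch on chromosome 1 were added after seeing values. No hg19 genome or annotation was used, so genes, promoters, motifs and sequences are not given.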

Additional observations from a re-analysis of the deposited data

Results flagged for a closer look

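Outside chromosomes 1 to 22, which the comparisons do not use, the clobetasol list held 414 peaks, of which 82 had no overlapping induced peak. Of these, 57 were among the 265 clobetasol peaks on chromosome X (21.5%, 95% Wilson interval 17.0 to 26.8). All had passed the authors' limit against the proliferating pool, and the share on chromosome X was not tested against that of the autosomes.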

How the results depend on the processing

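Of 22 alternative values over 7 results, 11 stayed close to the value reported, 11 moved and 0 reversed. The number of members stayed between 1448 and 1658 when overlap was judged by the summit or by 50% of the width, when induced peaks were widened by 500 or 1000 bp, with chromosome X, and without high-control sites. A stricter limit leaves fewer peaks by construction, with 532 from a −log10 q of 10 upward and 94 from 20. With the limit of 10 the median fold was 3.33 and the median number of fragments 69, and without high-control sites 3.14 and 46. Members with a lowest ratio above 1 numbered 812 with an induced upper limit 10% higher, and 303 with the lower 95% limit of the fragments. The share within 1 kb of an induced peak was 4.56% by distance between summits and 5.26% with the limit of 10. The share without a missing number was 19.4% where flanking peaks lay within 100 kb. The spread between the highest and lowest chromosome share, 12.1 percentage points, was 9.88 with the stricter limit and 13.5 without high-control sites, both added after seeing the data. The planned shares by start site and motif were not run, since no hg19 genome or annotation was used. No paired analysis was possible because the lists were called on pooled replicates, and no library could be left out for the same reason.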
